A study of Mus musculus with 16 samples.

Results

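The hearts described here are those of mice under pressure overload with and without Cardinal, 4 KO TAC and 4 Ctrl TAC libraries, which are 8 of the 16 libraries of the series. They were chosen by the genotype and the operation given for each animal, with no use of measured values. Cardinal is a long noncoding RNA of the heart, a transcript with no known protein product, annotated in mouse as Gm12295. KO TAC animals are labelled CARDINAL-KO and Ctrl TAC animals WT, and no Cre line or tissue-specific driver is part of the KO label. Both groups had transverse aortic constriction (TAC), in which the transverse aorta is tied against a needle that is then withdrawn, so that the left ventricle pumps against a raised pressure. The surgeon did not know the genotypes. The apex of the heart was taken 4 weeks after surgery, and its poly(A) RNA was sequenced as 1 library per mouse. The other 8 libraries are hearts of the same genotypes after a sham operation without ligation, 4 of each, and serve here as background. The comparison asks which transcripts of the loaded heart differ when Cardinal is missing.

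Under pressure overload the heart muscle cells enlarge, the fibroblasts between them become activated and lay down collagen and other matrix, and the muscle burns less fatty acid and relies more on glucose. The matrix is built from collagens, which are cut, cross-linked and bound by smaller glycoproteins and proteoglycans, and from elastic fibres that also store the growth factor TGF-β. The working muscle takes most of its energy from fatty acids broken down in mitochondria. Heart tissue is a mixture of cells, so in these bulk libraries a higher level of a transcript in the whole tissue can come from more cells of a type or from more RNA per cell, and these cannot be told apart.

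The 16 libraries held 53169437 to 79404714 counts, and 18275 genes passed the filter on low counts. Levels are given as CPM, counts scaled to a common library total. Cardinal had 8.03, 2.69, 3.04 and 3.37 CPM in Ctrl TAC 1 to 4 and 0.371, 0.276 and 0.368 CPM in KO TAC 1 to 3. The library labelled KO TAC 4 had 4.55 CPM (377 counts, 95% Poisson interval 4.10 to 5.03, counting error only), a control level that goes against its label. With all 8 libraries the difference in Cardinal level was -2.50 on the log2 CPM scale (exact two-sided permutation p = 0.114), and without KO TAC 4 it was -3.41 (exact p = 0.0571, the smallest that 35 relabellings can give). Ctrl TAC 2 stood apart in another way, with summed markers of other organs above those of the other 7 loaded libraries. It had 109.1 CPM of liver markers against 31.6 to 44.7, 6.54 CPM of lung markers against 0.5625 to 1.025 and 32.3 CPM of Schwann cell and neuron markers against 5.52 to 8.06. The animal numbers fall into 2 series. One, beginning with 25, holds KO TAC 4 beside Ctrl TAC 2, 3 and 4, and the other, beginning with 3, holds Ctrl TAC 1 beside KO TAC 1, 2 and 3 and all sham animals, so most of the genotype difference in loaded hearts runs along this split. What the split stands for is not given in the sources used here. Counts of genes called between the loaded groups are therefore also given without KO TAC 4, without Ctrl TAC 2, and with the series as a term.

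Of the 18275 genes tested, 489 (2.68%) differed between KO TAC and Ctrl TAC at an adjusted p under 0.05 in edgeR's quasi-likelihood test, which is what "called" means below. Of these, 248 were higher in KO TAC (1.36% of the genes tested) and 241 were lower (1.32%). Cardinal itself was not called (-1.57 ± 0.72 log2, SE, adjusted p 0.263), and in the fit without KO TAC 4 it was (-3.64 log2, adjusted p 0.000944). The p-values rest on the spread between animals as estimated over all 16 libraries, sham hearts included. A fit of the 8 loaded libraries alone called 154 genes. Most differences were modest. The median log2 fold change was 0.49 among the genes called higher and -0.31 among those called lower, and 37 and 17 genes changed by more than 1 log2. The median over all genes tested was -0.002. The genes called lower were the more abundant ones, with a median of 5.41 log2 CPM against 3.77 log2 CPM for those called higher and 2.87 log2 CPM over all genes. A total of 1927 genes (10.5% of those tested) had no overlap between the 4 KO TAC and the 4 Ctrl TAC libraries, among them 220 of the genes called higher and 229 of those called lower.

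**Figure D1:**
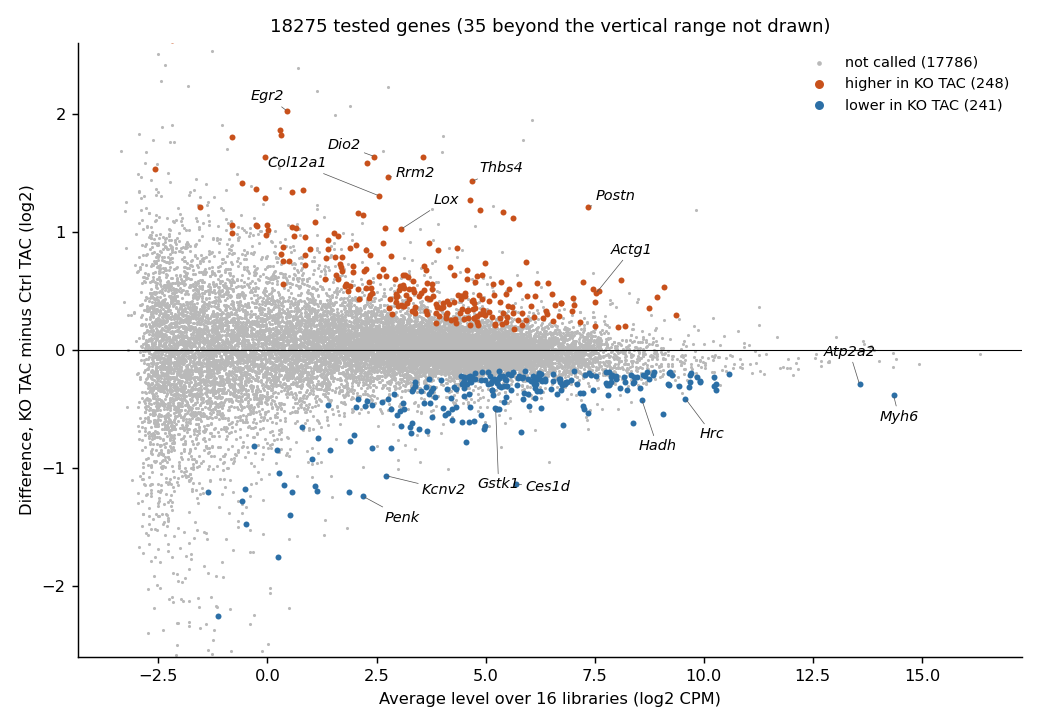
Difference between KO TAC and Ctrl TAC on the log2 scale (vertical axis) against the average log2 CPM of the 18275 genes tested (horizontal axis), 35 of which lie beyond the vertical range. Genes called higher and lower are coloured, and the genes called lower lie at higher average levels (median 5.41 log2 CPM) than those called higher (3.77 log2 CPM).

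The calls leaned on single libraries. Without Ctrl TAC 2 the number of called genes was 63, without KO TAC 3 it was 84, without KO TAC 2 152, without Ctrl TAC 3 190 and without KO TAC 1 258. Leaving out the library labelled KO TAC 4 gave 438, without both doubted libraries 109, and with the series as a term 12. A group of 54 genes, 36 higher and 18 lower, was called in each of the 16 fits that left out 1 library. They included the matrix genes Postn, Thbs4, Col12a1, Col14a1, Col5a2, Bgn, Aspn, Lox and Loxl3 among the higher ones and Hrc, Gstk1, Ldhd, Pex6, Ogdhl, Rpl3l and Aldh6a1 among the lower ones. Of the genes named with values below, those not in this group lost their call without Ctrl TAC 2, except Comp, which lost it without Ctrl TAC 3 or KO TAC 3, and Serpina3n, which lost it without KO TAC 3. Within the series starting with 25 (KO TAC 4 against Ctrl TAC 2, 3 and 4) the median difference of the genes called higher was 0.39 log2 and of those called lower -0.29 log2. Within the series starting with 3 (KO TAC 1, 2 and 3 against Ctrl TAC 1) the medians were 0.50 and -0.30 log2. These libraries also made the calls, so the shared direction is partly fixed by the choice of genes.

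Each loaded library was also placed on a line from the mean of the other Ctrl TAC libraries (0) to that of the other KO TAC libraries (1), over the genes called in the fit that left it out. KO TAC 1, 2 and 3 had median positions of 0.81, 0.91 and 1.00. KO TAC 4 lay at 0.63, with 66.8% of 437 genes nearer the KO TAC mean, although it held Cardinal. Ctrl TAC 2 lay at -0.48, Ctrl TAC 3 at 0.13, Ctrl TAC 1 at 0.40 and Ctrl TAC 4 at 0.50. Each position rests on its own set of genes and its own group means, so positions of different libraries are not on a common scale. By median, each KO TAC library lay nearer the KO TAC mean on its own line, and Ctrl TAC 4 lay about midway.

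**Figure D2:**
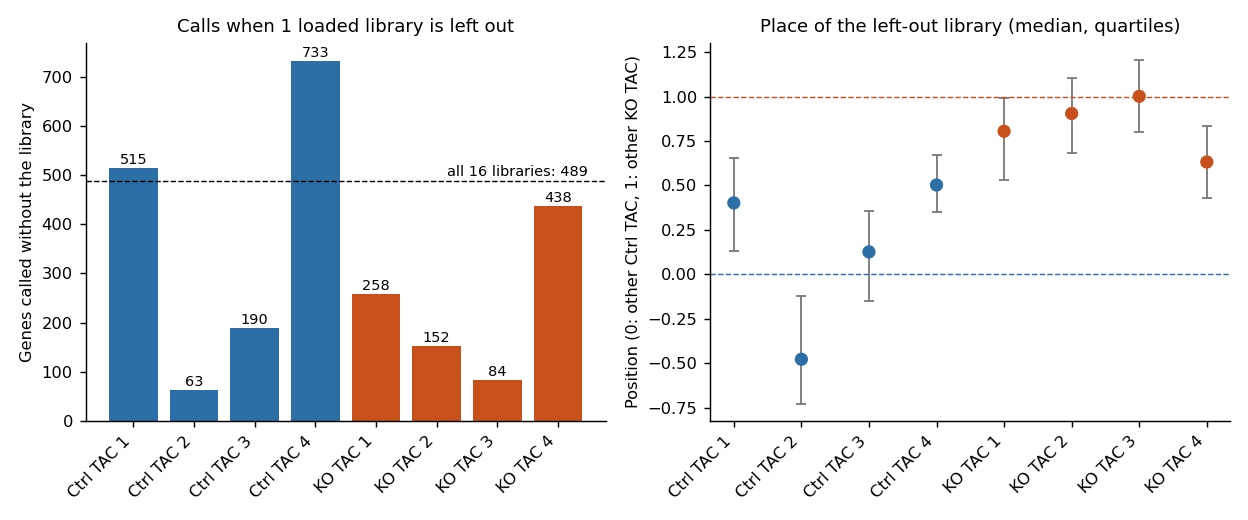
Left, number of genes called when each loaded library was left out, from 63 to 733, with a line at the 489 called with all 16 libraries. Right, position of the left-out library between the mean of the other Ctrl TAC libraries (0) and of the other KO TAC libraries (1) over the genes called without it, as median with lower and upper quartile over genes. KO TAC libraries lay between 0.63 and 1.00 and Ctrl TAC libraries between -0.48 and 0.50.

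In sham hearts, KO against Ctrl gave 0 called genes (0% of 18275) in edgeR, with 479 genes at an unadjusted p under 0.05, 3 genes called by DESeq2 and 0 by limma-voom. The edgeR fit did not call Cardinal, at -2.92 log2 (unadjusted p 0.00358 in the quasi-likelihood test). Its sham groups were fully separate, with a lowest control library at 3.245 CPM and a highest knockout library at 0.553 CPM. The fit estimates the spread of a gene over all 16 libraries, so the control-level value of KO TAC 4 enters that of Cardinal. Its miss is thus no measure of how sensitive the sham comparison was for other genes. A count of 0 does not by itself show that sham hearts were unaffected. The genes called in loaded hearts did not lean the same way in sham hearts. Of the 248 genes called higher, 111 (44.8%) were higher in KO sham, with a median of -0.02 log2, and of the 241 called lower, 130 (53.9%) were lower, with a median of -0.004 log2. The genotype by surgery interaction tests whether the genotype difference itself changed with the operation, and it called 2 genes (0.0109%), with 2024 at an unadjusted p under 0.05. DESeq2 called 132 and limma-voom 1. Lrrc14b had 8.11, 7.58, 8.35 and 7.39 CPM in Ctrl TAC 1 to 4 and 5.51, 5.46, 6.00 and 5.29 CPM in KO TAC 1 to 4, and its interaction was -0.86 log2 (adjusted p 0.0168). Dpm1, a subunit of the enzyme that makes mannose donors for glycosylation, had 40.6, 36.7, 36.7 and 25.6 CPM in Ctrl TAC and 22.8, 19.5, 18.4 and 26.7 CPM in KO TAC, and its interaction was -1.52 log2 (adjusted p 0.0168). The loaded groups overlapped for Dpm1 through Ctrl TAC 4 and KO TAC 4, and did not overlap for Lrrc14b. All sham animals are in the series starting with 3, so the interaction also runs along the series split. Its count with the series as a term is not reported here. Within the series starting with 25 and with 3 the loaded difference was -0.28 and -1.01 log2 for Dpm1 and -0.55 and -0.52 log2 for Lrrc14b.

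**Figure D3:**
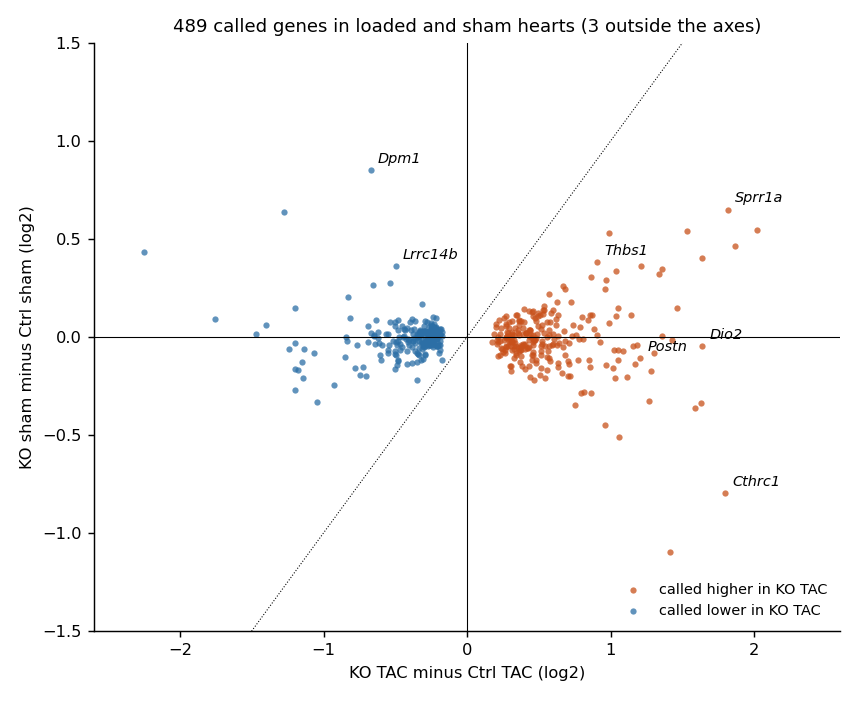
Log2 fold change of KO against Ctrl in sham hearts (vertical axis) against that in loaded hearts (horizontal axis) for the 489 genes called in loaded hearts, 3 of which lie outside the axes. A dotted line marks equal values, and the genes spread along the horizontal axis and centre near 0 on the vertical axis (medians -0.02 and -0.004 log2).

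Genes of the extracellular matrix were well represented among those called higher. Over 6 lists of matrix genes 149 were tested, 118 of them higher in KO TAC, and 35 (23.5%, against 2.68% of all genes) were called, each of them higher. Their median log2 fold change was 0.26 in loaded hearts and -0.04 in sham hearts, and 55 of the 149 had no overlap between the groups (the share over all genes was 10.5%). Without Ctrl TAC 2 the lists held 12 called genes, without KO TAC 4 31, without both 14, and with the series as a term 1 (Col12a1). Fibroblast markers moved with them. Their summed level was 1439 to 1871 CPM in Ctrl TAC and 1858 to 2136 CPM in KO TAC, 9 of 10 markers were higher and 1 was called. Their part in the matrix result was not tested.

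Among the collagens, 2 of 9 tested fibrillar collagens and 6 of 28 other collagens were called, all higher. Col12a1, a collagen that sits on the surface of fibrils and is made where tissue is under tension, had 5.72, 5.20, 4.49 and 8.10 CPM in Ctrl TAC 1 to 4 and 13.2, 12.7, 18.3 and 13.9 CPM in KO TAC 1 to 4. Every KO TAC library was above every Ctrl TAC library. The log2 fold change was 1.30 ± 0.17 (SE of the fit on all 16 libraries, for 4 against 4 of them). The adjusted p was 0.00563, the lowest value reached in the comparison, and 0.0333 when edgeR was fitted to the 8 loaded libraries alone. Col14a1, another fibril-associated collagen, had 24.5, 19.7, 23.1 and 25.7 CPM in Ctrl TAC and 30.8, 38.1, 37.2 and 38.0 CPM in KO TAC, and rose by 0.63 ± 0.10 log2 (adjusted p 0.00753). The network-forming Col8a1 and Col8a2 rose by 0.57 ± 0.13 and 1.34 ± 0.26 log2 (adjusted p 0.0306 and 0.0145), and Col22a1, a collagen of tissue junctions, rose by 0.72 ± 0.13 log2 (adjusted p 0.0141). Of the fibrillar collagens that give tissue its tensile strength, Col1a2 had 214, 203, 225 and 274 CPM in Ctrl TAC and 312, 318, 289.5 and 293 CPM in KO TAC, a rise of 0.40 ± 0.10 log2 (adjusted p 0.0375). Col5a2, which helps to set fibril diameter, rose by 0.51 ± 0.09 log2 (adjusted p 0.0104). Ctrl TAC 4 was the highest control for each of these collagens, and the list medians of the fibrillar and other collagens were 0.35 and 0.14 log2.

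Matricellular proteins, which are secreted into the matrix and signal to cells more than they bear load, held the most calls of these lists. Of 37 tested, 31 were higher, 13 were called higher, 0 lower, and the median was 0.35 log2. Postn, periostin of activated fibroblasts, had 177, 127, 162 and 249.7 CPM in Ctrl TAC 1 to 4 and 385, 403, 486 and 378 CPM in KO TAC 1 to 4, with log2 fold change 1.21 ± 0.18 and adjusted p 0.0102. Thbs4, a thrombospondin of stressed muscle, had 23.1, 16.6, 22 and 41.7 CPM in Ctrl TAC and 75.9, 66.0, 69.1 and 67.1 CPM in KO TAC (1.43 ± 0.22 log2, adjusted p 0.0104). In both genes every KO TAC library, KO TAC 4 included, was above every control, and Thbs4 was more narrowly spread in KO TAC (SD 4.44 CPM, n = 4) than in Ctrl TAC (SD 10.9 CPM, n = 4). Comp, a related collagen-binding protein, had 16.1, 4.42, 7.97 and 12.6 CPM in Ctrl TAC and 28.8, 31.5, 39.1 and 27.9 CPM in KO TAC (1.63 ± 0.31 log2, adjusted p 0.0194). Thbs1, an activator of latent TGF-β, rose by 0.91 ± 0.17 log2 (adjusted p 0.0183), Fgl2 by 0.74 ± 0.12 log2 (adjusted p 0.00849) and Igfbp7, a binder of insulin-like growth factors, by 0.50 ± 0.09 log2 (adjusted p 0.0142). Fn1, fibronectin, went from 73.0 to 82.8 CPM in Ctrl TAC to 95.2 to 101 CPM in KO TAC (0.37 ± 0.07 log2, adjusted p 0.0154). Cthrc1 and Spp1 rose by 1.80 ± 0.40 and 1.05 ± 0.24 log2 from low levels, with at most 0.971 CPM in a Ctrl TAC library. Of these genes Postn, Thbs4, Fgl2 and Igfbp7 were called in each of the 16 fits.

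**Figure D4:**
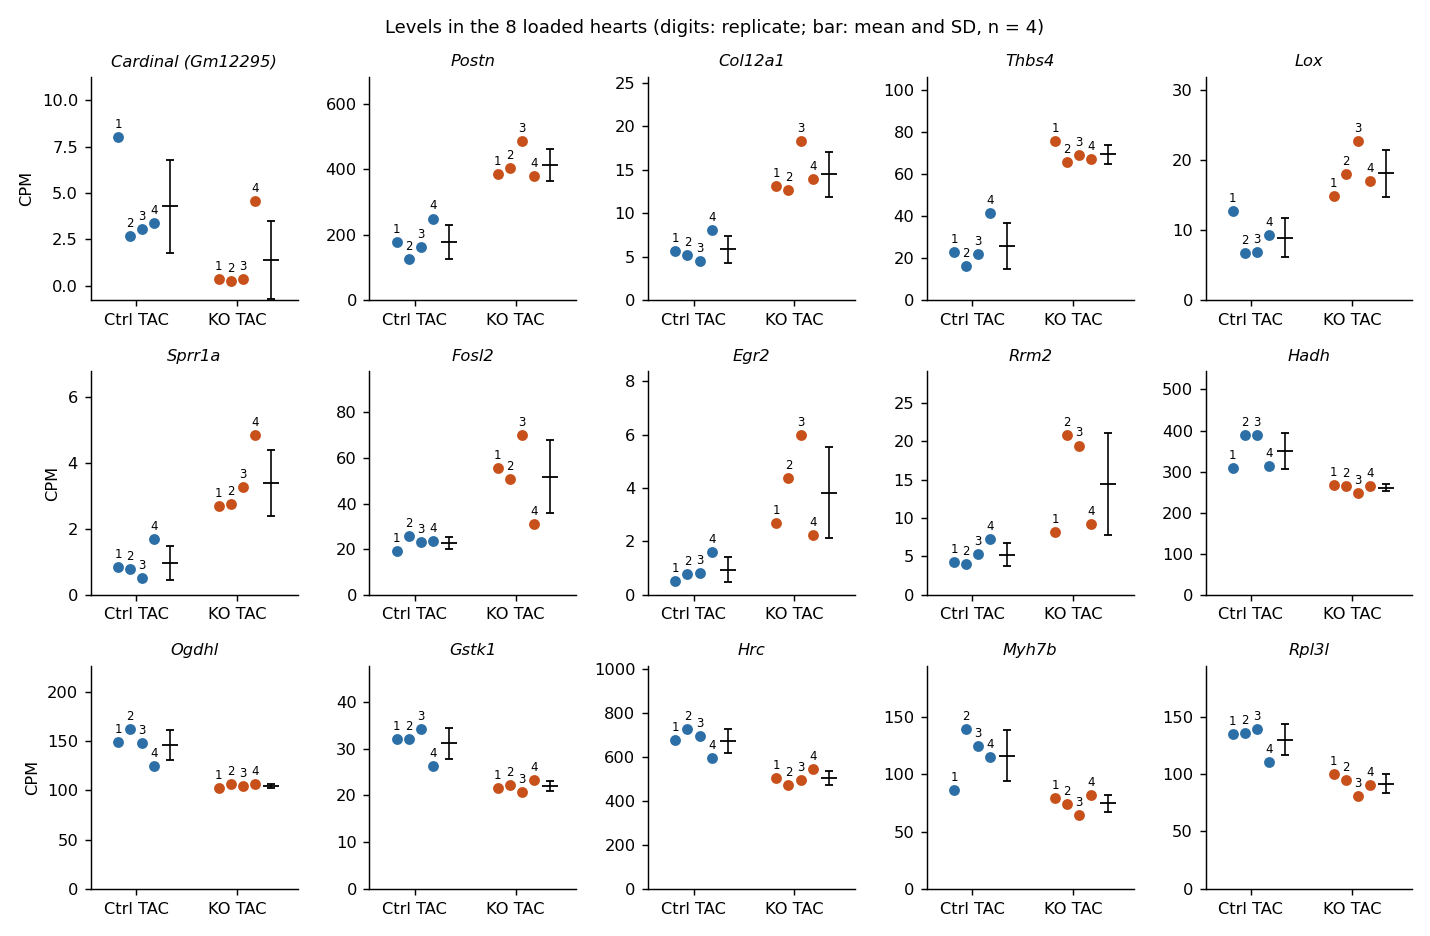
CPM (vertical axis, linear scale) of 15 named genes in each of the 4 Ctrl TAC and 4 KO TAC libraries, with points marked by replicate number and bars for the mean and SD (n = 4). Postn and Thbs4 are higher in all 4 KO TAC libraries than in any Ctrl TAC library, and the library labelled KO TAC 4 lies with the other KO TAC libraries for both.

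Proteoglycans, elastic fibre genes and the enzymes that finish collagen followed. Of 27 proteoglycans 5 were called, of 20 genes for elastic fibres and latent TGF-β binding 3, and of 28 genes for collagen processing 6, all higher. Bgn, biglycan, a small proteoglycan bound to collagen, had 344, 276, 315 and 422 CPM in Ctrl TAC 1 to 4 and 513, 512, 526 and 492 CPM in KO TAC 1 to 4 (0.59 ± 0.10 log2, adjusted p 0.0104). Aspn, asporin of the same family, rose by 0.57 ± 0.11 log2 (adjusted p 0.0145). Fmod, fibromodulin, had 5.35, 1.46, 4.77 and 6.77 CPM in Ctrl TAC and 13.9, 18.2, 11.03 and 11.9 CPM in KO TAC (1.58 ± 0.38 log2, adjusted p 0.0422). The latent TGF-β binding protein Ltbp2 had 33.1, 19.2, 16.9 and 41.1 CPM in Ctrl TAC and 58.9, 63.0, 84.2 and 59.6 CPM in KO TAC, a rise of 1.27 ± 0.27 log2 (adjusted p 0.0329). Ltbp3 and the elastic fibre protein Fbln5 rose by 0.31 ± 0.06 and 0.46 ± 0.09 log2 (adjusted p 0.0161 and 0.0167). Lox, the enzyme that starts the cross-linking of collagen and elastin, had 12.7, 6.75, 6.98 and 9.40 CPM in Ctrl TAC and 14.9, 17.99, 22.8 and 17.0 CPM in KO TAC. It rose by 1.02 ± 0.17 log2 (adjusted p 0.0104), and its relatives Loxl3 and Loxl1 by 0.62 ± 0.11 and 0.46 ± 0.11 log2 (adjusted p 0.0104 and 0.0374).

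Some genes that break matrix down or hold proteases in check were called as well. Of 40 tested proteases and inhibitors 7 were called (17.5%, against 2.68% of all genes), all higher, with a list median of 0.14 log2. The protease genes Mmp2, a gelatinase, and Ctsk, the collagen-cutting cathepsin K, rose by 0.56 ± 0.11 and 0.60 ± 0.12 log2 (adjusted p 0.0194 and 0.0184). Timp2, an inhibitor that also takes part in MMP2 activation, rose by 0.38 ± 0.07 log2 (adjusted p 0.0124). Serpine2, an inhibitor of thrombin and plasminogen activators, had 24.2, 24.4, 25.9 and 32.8 CPM in Ctrl TAC 1 to 4 and 37.5, 39.6, 41.2 and 40.9 CPM in KO TAC 1 to 4 (0.57 ± 0.09 log2, adjusted p 0.00753). Proteases and their inhibitors were thus called together, with no overlap between the groups for these 4 genes. The list held 2 called genes without Ctrl TAC 2, without KO TAC 4 7, and with the series as a term 1.

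Of 39 tested genes of TGF-β and activin signalling 29 were higher, and 4 were called (10.3%, against 2.68% of all genes), all higher. They were the ligands Tgfb3 (0.39 ± 0.10 log2, adjusted p 0.0421) and Inhbb, a subunit of activin and inhibin (0.78 ± 0.19 log2, adjusted p 0.0366), the secreted activin-binding relative Fstl1 (0.44 ± 0.10 log2, adjusted p 0.0232) and Skil, an inhibitor of SMAD proteins that TGF-β itself induces. Skil had 22.6, 25.9, 29.0 and 27.7 CPM in Ctrl TAC and 35.9, 34.5, 36.3 and 34.6 CPM in KO TAC (0.42 ± 0.07 log2, adjusted p 0.00883), and was called in each of the 16 fits and with the series as a term. Inhbb had 2.38 CPM in KO TAC 4, inside the Ctrl TAC range of 2.01 to 2.51 CPM, against 3.72 to 4.73 CPM in KO TAC 1 to 3. Among 36 fibroblast and activation genes 7 were called (19.4%, against 2.68% of all genes), all higher. They included the secreted WNT antagonists Sfrp1 (0.85 ± 0.12 log2, adjusted p 0.00731) and Sfrp2 (1.14 ± 0.22 log2, adjusted p 0.0154). Sfrp1 had 15.96, 12.1, 15.5 and 13.1 CPM in Ctrl TAC and 22.02, 23.4, 33.5 and 22.7 CPM in KO TAC. The TGF-β list and the fibroblast list held 1 called gene each without Ctrl TAC 2, without KO TAC 4 4 and 5, and with the series as a term 1 and 0.

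Most cell cycle transcripts had low levels and higher values in KO TAC. Of 46 tested, 44 were higher and 8 were called (17.4%, against 2.68% of all genes), all higher. The list median of 0.66 log2 was the largest of the lists that are not marker lists. Relative to the Ctrl TAC mean, the list medians in KO TAC 1 to 4 were 0.25, 0.83, 0.93 and 0.37 log2, and in Ctrl TAC 1 to 4 -0.006, -0.10, -0.09 and 0.26 log2. KO TAC 2 and 3 were thus well above the rest, while KO TAC 1 lay level with Ctrl TAC 4. Rrm2, a subunit of the enzyme that makes DNA building blocks, showed the same order, with 4.22, 4.00, 5.35 and 7.27 CPM in Ctrl TAC and 8.20, 20.8, 19.5 and 9.20 CPM in KO TAC (1.46 ± 0.33 log2, adjusted p 0.0338). Top2a, the topoisomerase of dividing cells, had 5.61, 5.42, 5.26 and 6.98 CPM in Ctrl TAC and 8.18, 13.6, 12.9 and 8.93 CPM in KO TAC (0.91 ± 0.20 log2, adjusted p 0.0263). The mitotic genes Ccnb1, cyclin B1, and Bub1, a checkpoint kinase, rose by 1.09 ± 0.26 and 1.28 ± 0.28 log2 (adjusted p 0.0382 and 0.0222), and the replication clamp Pcna by 0.30 ± 0.07 log2 (adjusted p 0.035). Lymphocyte markers lay in a similar order, with a median of 0.85 log2 in KO TAC 2 and KO TAC 3 and of 0.13 and 0.06 log2 in KO TAC 1 and 4. Their summed level was 2.45 to 3.75 CPM in Ctrl TAC and 3.47 to 5.49 CPM in KO TAC, with 8 of 9 higher and 0 called, and their part in the cell cycle result was not tested. Without Ctrl TAC 2 the list held 0 called genes, without KO TAC 4 10, without both 1 (Bub1), and with the series as a term 0.

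Immediate early genes, whose transcripts appear within minutes of a stimulus and encode mostly transcription factors, were higher in 22 of 23 cases. Of these 23 genes 5 were called (21.7%, against 2.68% of all genes), all higher, and the list median was 0.55 log2. Fosl2, an AP-1 subunit, had 19.1, 25.7, 23.1 and 23.4 CPM in Ctrl TAC 1 to 4 and 55.7, 50.6, 70.03 and 31.0 CPM in KO TAC 1 to 4 (1.18 ± 0.24 log2, adjusted p 0.0239). Btg2, an antiproliferative gene, had 24.3, 37.1, 44.7 and 40.1 CPM in Ctrl TAC and 86.4, 94.2, 98.7 and 49.5 CPM in KO TAC (1.17 ± 0.27 log2, adjusted p 0.0422). In both, KO TAC 4 was the lowest KO TAC library and lay just above the controls. The zinc finger factors Egr2 and Egr3 rose by 2.02 ± 0.43 and 0.97 ± 0.23 log2 (adjusted p 0.0242 and 0.0353), and the orphan nuclear receptor Nr4a2 by 1.36 ± 0.23 log2 (adjusted p 0.0102), the latter in each of the 16 fits. The list median was 0.24 log2 within the series starting with 25, where KO TAC 4 is the 1 KO library, and 1.08 log2 within the series starting with 3, whose 1 loaded control, Ctrl TAC 1, had the lowest list median of the controls (-0.26 log2). With the series as a term it was 0.67 log2, and the split and these single libraries cannot be told apart. Without KO TAC 4 the list held 9 called genes, without Ctrl TAC 2 1, and with the series as a term 0.

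**Figure D5:**
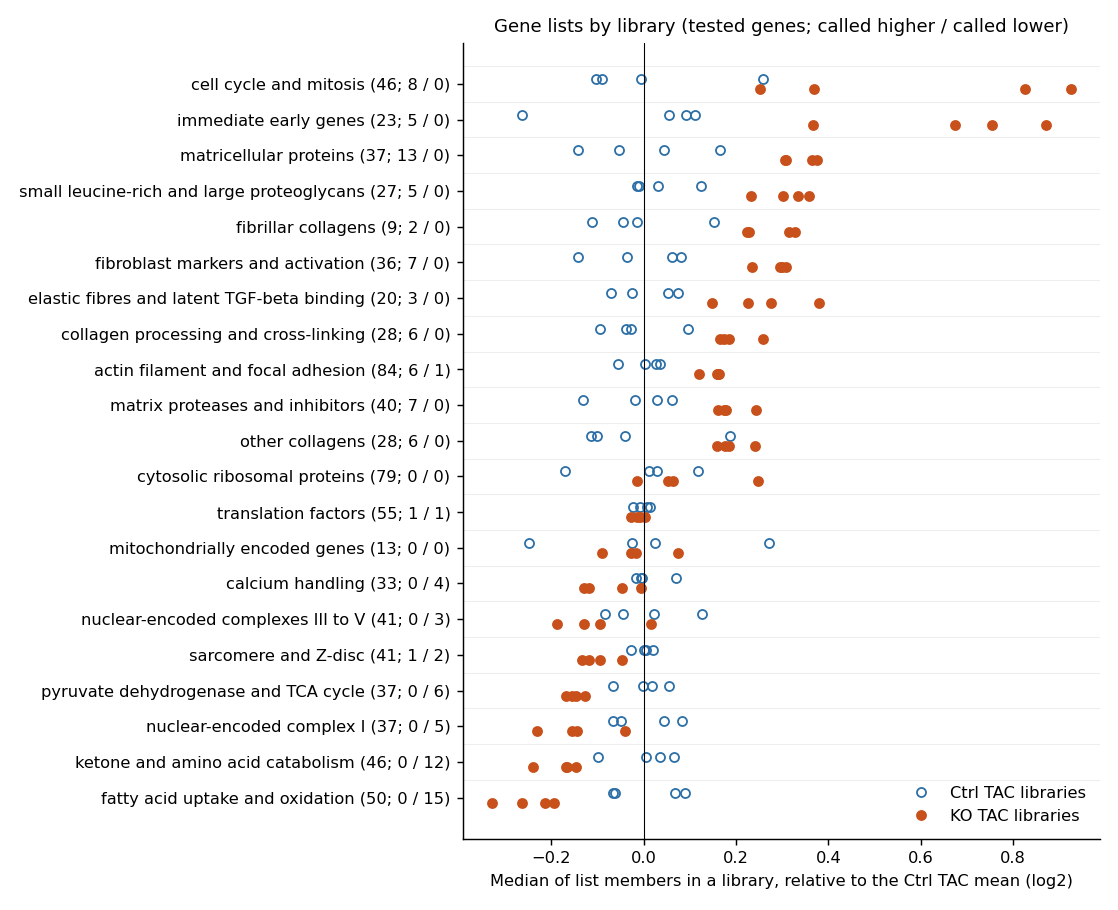
Median log2 CPM of gene lists (vertical axis) in each loaded library, relative to the mean of the Ctrl TAC libraries. For the cell cycle list KO TAC 2 and 3 (0.83 and 0.93 log2) lie above KO TAC 1 and 4 (0.25 and 0.37 log2), whereas the matricellular list is even across KO TAC (0.31 to 0.38 log2) and the fatty acid list is below 0 in all 4 KO TAC libraries (-0.33 to -0.19 log2).

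Genes of the actin filament and of focal adhesions, the contacts that tie it to the matrix, mostly had slightly higher values in KO TAC. Of 84 tested, 71 were higher, and 28 had no overlap between the groups (the share over all genes was 10.5%). Of the list 6 were called higher and 1 lower (8.33% called, against 2.68% of all genes), and the median was 0.15 log2. Actg1, cytoplasmic gamma-actin, had 163, 164, 186 and 189 CPM in Ctrl TAC 1 to 4 and 241, 257, 267 and 212 CPM in KO TAC 1 to 4 (0.48 ± 0.10 log2, adjusted p 0.021). Myl6, a light chain of nonmuscle and smooth muscle myosin, rose by 0.29 ± 0.06 log2 (adjusted p 0.02), and the actin-binding Cald1 and Cfl2, caldesmon and a cofilin that severs filaments, by 0.26 ± 0.06 and 0.20 ± 0.05 log2 (adjusted p 0.021 and 0.0425). Itgbl1, an integrin-like secreted protein, rose by 0.63 ± 0.14 log2 (adjusted p 0.0338). Lims2, an adhesion adaptor, went the other way, with 58.7, 72.3, 59.1 and 58.8 CPM in Ctrl TAC and 47.2, 50.4, 43.8 and 51.7 CPM in KO TAC (-0.37 ± 0.09 log2, adjusted p 0.0455). Of 37 tubulin and intermediate filament genes 2 were called (5.4%, against 2.68% of all genes), both higher, namely Tuba1b (0.40 ± 0.10 log2, adjusted p 0.044) and the keratin Krt18 (1.41 ± 0.34 log2, adjusted p 0.0374). The actin and tubulin lists held 0 called genes without Ctrl TAC 2 and with the series as a term, and without KO TAC 4 they held 4 and 1.

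Serum response factor binds the CArG box and drives both actin genes and immediate early genes, so RefSeq promoters (GRCm38.p6, 250 bases before to 50 after a start, both strands) were read for this motif. Of the 248 genes called higher 167 matched a promoter and 5 (2.99%) held a CArG box, namely Actg1, Dusp5, Egr2, Filip1l and Myl6. Among the 186 matched genes called lower 3 (1.61%) held one, and among all 12202 matched genes 198 (1.62%). Of 212 matches in all promoters 2 shared bases with another motif searched. The 250 bases before the start are shown for the 3 of these 5 genes described here, from chr11:120348496-120348745 (minus strand), chr10:128493010-128493259 (minus strand) and chr10:67537619-67537868 (plus strand), with the CArG box in capitals.
Actg1: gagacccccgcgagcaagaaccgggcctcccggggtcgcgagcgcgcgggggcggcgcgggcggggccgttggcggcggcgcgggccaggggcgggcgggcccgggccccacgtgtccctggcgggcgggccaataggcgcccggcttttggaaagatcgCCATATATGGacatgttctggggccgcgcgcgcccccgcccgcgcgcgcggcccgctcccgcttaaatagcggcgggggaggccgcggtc
Myl6: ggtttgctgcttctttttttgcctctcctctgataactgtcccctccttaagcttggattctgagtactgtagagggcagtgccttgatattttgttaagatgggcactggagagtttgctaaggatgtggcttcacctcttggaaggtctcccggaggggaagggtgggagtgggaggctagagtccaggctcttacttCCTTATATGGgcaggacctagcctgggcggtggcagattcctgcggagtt
Egr2: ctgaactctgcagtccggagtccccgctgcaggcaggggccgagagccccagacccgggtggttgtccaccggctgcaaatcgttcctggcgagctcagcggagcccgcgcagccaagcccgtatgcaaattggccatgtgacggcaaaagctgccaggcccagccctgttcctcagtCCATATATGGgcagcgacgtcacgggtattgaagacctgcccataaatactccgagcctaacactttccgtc
The box ends 80, 40 and 62 bases before the annotated start shown in Actg1, Myl6 and Egr2. Egr2 has further RefSeq starts with a CArG box. The box shown ends 63 and 123 bases before other starts, and a different box, CCTTTTTTGG, ends 62 bases before another. The match is a description of the sequence and no measure of binding.

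Sprr1a, a small proline-rich protein induced in stressed heart muscle, gave the largest rise of the genes called with the series as a term. It had 0.827, 0.792, 0.517 and 1.70 CPM in Ctrl TAC 1 to 4 and 2.70, 2.76, 3.27 and 4.85 CPM in KO TAC 1 to 4, highest in the library labelled KO TAC 4 (1.82 ± 0.32 log2, adjusted p 0.0116, and 0.0446 with the series as a term). Its promoter held the AP-1 motif TGANTCA at 2 places, ending 139 and 109 bases before the start, shown in capitals from chr3:92485882-92486131 (minus strand).
Sprr1a: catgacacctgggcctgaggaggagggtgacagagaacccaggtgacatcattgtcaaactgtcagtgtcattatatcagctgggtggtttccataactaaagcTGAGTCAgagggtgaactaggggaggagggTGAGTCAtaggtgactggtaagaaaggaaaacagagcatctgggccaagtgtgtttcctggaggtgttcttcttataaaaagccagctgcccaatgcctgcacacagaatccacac
The AP-1 motif was present in 7.19% of matched genes called higher, 6.45% of those called lower and 6.62% of all matched genes, and 27 of 898 matches shared bases with another motif.

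Most mitochondrial energy genes had lower values in KO TAC, with a small median difference. Over 5 lists 209 genes were tested, 188 of them lower, and 40 (19.1%, against 1.32% of all genes called lower) were called, each of them lower. Their median was -0.16 log2 in loaded hearts and 0.01 log2 in sham hearts, and 79 of the 209 had no overlap between the groups (the share over all genes was 10.5%). Without Ctrl TAC 2 and with both doubted libraries left out 1 gene was called, Aldh6a1, without KO TAC 4 23, and with the series as a term 0. Cardiomyocyte markers moved in the same direction, with a summed level of 66780 to 72020 CPM in Ctrl TAC and 59440 to 61750 CPM in KO TAC, 14 of 14 lower and 2 called (Myh6 and Ryr2), and their part in the result was not tested. The 13 genes encoded in the mitochondrial genome itself had a median of -0.03 log2, with 5 higher, 8 lower and 0 called.

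Fatty acid oxidation held the most calls of these lists, with 49 of 50 genes lower, 15 called lower, 0 higher, and a median of -0.26 log2. The list median was -0.19, -0.26, -0.33 and -0.21 log2 in KO TAC 1 to 4 and -0.06, 0.07, 0.09 and -0.07 log2 in Ctrl TAC 1 to 4. Hadh, which carries out the third step of β-oxidation of medium and short chains, had 308, 389, 388 and 314 CPM in Ctrl TAC and 268, 264, 247 and 265 CPM in KO TAC (-0.42 ± 0.08 log2, adjusted p 0.0141). Acadvl, which starts the oxidation of very long chains, had 735, 807, 752 and 675 CPM in Ctrl TAC and 589.9, 605, 589.9 and 596 CPM in KO TAC (-0.32 ± 0.07 log2, adjusted p 0.0184). The KO TAC libraries lay within a narrow band for both genes, and the highest control was Ctrl TAC 2. The electron transfer flavoprotein subunits Etfa and Etfb, which pass electrons from fatty acids to the respiratory chain, fell by 0.29 ± 0.05 and 0.33 ± 0.06 log2 (adjusted p 0.0131 and 0.0145), and Eci2, needed for unsaturated chains, by 0.34 ± 0.07 log2 (adjusted p 0.0165). Ces1d, a lipid-cleaving esterase, had 16.3, 27.7, 31.3 and 15.3 CPM in Ctrl TAC and 13.5, 10.4, 6.72 and 10.6 CPM in KO TAC (-1.14 ± 0.26 log2, adjusted p 0.0395).

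Of 46 genes of ketone and amino acid breakdown 39 were lower, 12 were called lower, 0 higher, and the median was -0.19 log2. Aldh6a1, a dehydrogenase of valine breakdown, had 186, 189, 189 and 169.6 CPM in Ctrl TAC 1 to 4 and 150.1, 149, 146 and 150.4 CPM in KO TAC 1 to 4 (-0.30 ± 0.05 log2, adjusted p 0.0109). It was the 1 gene of the mitochondrial lists called in each of the 16 fits. Prodh, the first enzyme of proline breakdown, fell by 0.50 ± 0.10 log2 (adjusted p 0.0184), Gpt, alanine aminotransferase, by 0.48 ± 0.10 log2 (adjusted p 0.02) and Pcca, a subunit of propionyl-CoA carboxylase, by 0.25 ± 0.05 log2 (adjusted p 0.0194). In the citric acid cycle and pyruvate dehydrogenase 6 of 37 genes were called lower, in complex I of the respiratory chain 5 of 37, and in complexes III to V 3 of 41, with 0 higher in each. Library medians of both respiratory chain lists overlapped through KO TAC 2. It lay at -0.04 log2 for complex I and 0.02 log2 for complexes III to V, against -0.05 and -0.08 log2 in Ctrl TAC 2. KO TAC 1, 3 and 4 lay below every control in both lists. Sdha and Sdhb, subunits of succinate dehydrogenase, had 1011 to 1174 and 552 to 613 CPM in Ctrl TAC and 886 to 914 and 493 to 535 CPM in KO TAC (-0.29 ± 0.05 and -0.21 ± 0.05 log2, adjusted p 0.0141 and 0.0296). Fh1, fumarase, fell by 0.23 ± 0.05 log2 (adjusted p 0.0346). The complex I subunits Ndufs7 and Ndufb10 fell by 0.33 ± 0.07 and 0.22 ± 0.05 log2 (adjusted p 0.0165 and 0.0238), and Uqcrc1 of complex III by 0.20 ± 0.05 log2 (adjusted p 0.0387).

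A group of 4 genes of metabolism outside the 5 mitochondrial lists was called in each of the 16 fits and also with the series as a term. Gstk1, a glutathione transferase of mitochondria and peroxisomes, had 32.1, 32.0, 34.1 and 26.2 CPM in Ctrl TAC 1 to 4 and 21.5, 22.3, 20.8 and 23.3 CPM in KO TAC 1 to 4 (-0.50 ± 0.07 log2, adjusted p 0.00563). Pex6, an ATPase that recycles the peroxisomal import receptor, had 38.5, 45.4, 36.6 and 33.2 CPM in Ctrl TAC and 27.9, 28.1, 25.3 and 27.1 CPM in KO TAC (-0.51 ± 0.07 log2, adjusted p 0.00731). Ogdhl, a relative of the oxoglutarate dehydrogenase of the citric acid cycle, had 149, 162, 148 and 125 CPM in Ctrl TAC and 102, 106, 105 and 106 CPM in KO TAC (-0.48 ± 0.07 log2, adjusted p 0.00753). Ldhd, a mitochondrial D-lactate dehydrogenase, had 38.7, 41.1, 39.8 and 34.2 CPM in Ctrl TAC and 28.9, 30.0, 27.3 and 27.3 CPM in KO TAC (-0.44 ± 0.06 log2, adjusted p 0.00563). In all 4 the groups did not overlap, and Ctrl TAC 4 was the control nearest to KO TAC.

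Among 39 genes of glucose use and the creatine shuttle 8 were called lower and 1 higher (23.1% called, against 2.68% of all genes). Those lower included Pygm, the glycogen phosphorylase of muscle (-0.27 ± 0.05 log2, adjusted p 0.0154), Pfkm, the muscle phosphofructokinase (-0.28 ± 0.06 log2, adjusted p 0.0196), Ldhb, the lactate dehydrogenase chain typical of heart (-0.24 ± 0.05 log2, adjusted p 0.0242) and Ckm, muscle creatine kinase (-0.21 ± 0.05 log2, adjusted p 0.0422). The 1 called higher was Eno1, the enolase of most nonmuscle cells (0.24 ± 0.06 log2, adjusted p 0.0325). This list held 1 called gene without Ctrl TAC 2, without KO TAC 4 7, and with the series as a term 1. Of 35 metabolic regulators 1 was called (2.86%, near the 2.68% of all genes), Rxrg, a retinoid X receptor, lower by 0.28 ± 0.07 log2 (adjusted p 0.0335). The regulator list held 0 called genes without Ctrl TAC 2, without KO TAC 4 2, and with the series as a term 0.

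The estrogen-related receptors drive mitochondrial genes through the site AAGGTCA, which was searched on both strands of the same promoters. It was present in 14 of 186 matched genes called lower (7.53%), in 5 of 167 called higher (2.99%) and in 507 of 12202 matched genes (4.16%), and 13 of 551 matches shared bases with another motif. The 14 were Acacb, Acadm, Ak1, Cryba4, Got1, Gstk1, Ift172, Myh7b, Qsox2, Rpl3l, Rxrg, Smco1, Timm44 and Tmem201. The promoters of 3 genes described here are shown, with the site or its complement in capitals, from chr6:42245685-42245934, chr17:24732435-24732684 and chr1:167618015-167618264, all on the plus strand.
Gstk1: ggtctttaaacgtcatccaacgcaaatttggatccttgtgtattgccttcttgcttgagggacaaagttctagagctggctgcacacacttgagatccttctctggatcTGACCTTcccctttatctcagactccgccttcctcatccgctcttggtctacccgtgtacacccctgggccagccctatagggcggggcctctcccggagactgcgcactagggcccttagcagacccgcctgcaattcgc
Rpl3l: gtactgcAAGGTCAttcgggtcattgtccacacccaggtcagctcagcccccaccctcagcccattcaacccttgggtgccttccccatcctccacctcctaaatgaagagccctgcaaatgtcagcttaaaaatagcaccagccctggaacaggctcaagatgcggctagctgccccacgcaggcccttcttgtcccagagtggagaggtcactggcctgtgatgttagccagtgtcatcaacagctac
Rxrg: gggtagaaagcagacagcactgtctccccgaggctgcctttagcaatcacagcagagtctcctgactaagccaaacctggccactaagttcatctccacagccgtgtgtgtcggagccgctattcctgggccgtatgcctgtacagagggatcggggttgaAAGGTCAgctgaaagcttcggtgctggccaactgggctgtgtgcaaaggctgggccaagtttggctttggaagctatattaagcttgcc
The site ends 134, 236 and 82 bases before the annotated start in Gstk1, Rpl3l and Rxrg. Of the 170 listed mitochondrial genes with a promoter 15 (8.82%) held it, and of the 34 of them called lower 3 (8.82%). The other motifs searched are given as shares of matched genes called lower, called higher and of all matched genes. The site of the factor GABPA was in 12.9%, 8.98% and 17.8%, and that of NRF1 in 6.45%, 4.79% and 5.34%. The TEAD site was in 15.6%, 13.2% and 15%, the clock E-box in 8.06%, 10.2% and 11.3%, and the SMAD box in 0.538%, 0% and 0.295%.

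A few transcripts of the contractile machinery and of calcium handling were called lower. Of 33 calcium handling genes 4 were called lower and 0 higher (12.1% called, against 2.68% of all genes), with a list median of -0.04 log2. Hrc, a calcium-binding protein of the sarcoplasmic reticulum, had 677, 726, 694 and 596 CPM in Ctrl TAC 1 to 4 and 505, 473, 495 and 547 CPM in KO TAC 1 to 4 (-0.42 ± 0.06 log2, adjusted p 0.00753), and was called in each of the 16 fits. Atp2a2, the pump SERCA2 that returns calcium to the store, had 10400, 11220, 10420 and 9857 CPM in Ctrl TAC and 8969, 8089, 8558 and 8536 CPM in KO TAC (-0.29 ± 0.06 log2, adjusted p 0.0142). The groups did not overlap in either gene. Ryr2, the release channel, and Casq1, the calsequestrin of skeletal muscle, fell by 0.34 ± 0.08 and 0.83 ± 0.21 log2 (adjusted p 0.0374 and 0.0474), and their groups overlapped. Skeletal muscle markers, which share Casq1's usual tissue, had a median of -0.32 log2, with 6 of 8 lower and 0 called, and their median relative to the Ctrl TAC mean was highest in Ctrl TAC 2 (0.77 log2). Their summed level, 2493 to 3979 CPM in Ctrl TAC and 2531 to 3872 CPM in KO TAC, was mostly that of Acta1, which the loaded heart also makes. Casq1 had 7.29, 10.89, 15.66 and 9.73 CPM in Ctrl TAC 1 to 4, highest in Ctrl TAC 3, where the marker median was -0.11 log2. Without Ctrl TAC 2 its log2 fold change was -0.83. The part of the skeletal muscle markers in the Casq1 result was not tested. The calcium handling list held 1 called gene without Ctrl TAC 2, without KO TAC 4 4, and with the series as a term 0.

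Of 41 sarcomere and Z-disc genes 32 were lower, 2 were called lower and 1 higher (7.32% called, against 2.68% of all genes). Myh7b, a myosin heavy chain of slow muscle and heart, had 86.2, 139, 125 and 115 CPM in Ctrl TAC 1 to 4 and 78.95, 73.8, 64.8 and 81.6 CPM in KO TAC 1 to 4 (-0.64 ± 0.12 log2, adjusted p 0.0142). Obsl1, an obscurin-like cytoskeletal adaptor, fell by 0.29 ± 0.06 log2 (adjusted p 0.0242). Pdlim3, an actinin-associated LIM protein of the Z-disc, rose by 0.57 ± 0.12 log2 (adjusted p 0.0196). In the hypertrophy programme, the set of fetal and stress genes that overload switches on, 1 of 28 genes was called higher and 1 lower (7.14% called). Myh6, the adult myosin heavy chain of the mouse ventricle, had 20810, 21920, 18760 and 18690 CPM in Ctrl TAC and 15200, 14570, 16070 and 15510 CPM in KO TAC (-0.39 ± 0.08 log2, adjusted p 0.0184). Uchl1, a ubiquitin hydrolase, rose by 0.51 ± 0.13 log2 (adjusted p 0.041), with an overlap through KO TAC 1 and Ctrl TAC 4. Nppa, the atrial natriuretic peptide that loaded ventricles re-express, had 1298, 501, 724 and 1579 CPM in Ctrl TAC and 2320, 2537, 2446 and 1985 CPM in KO TAC. Its groups did not overlap, but with a log2 fold change of 1.18 ± 0.32 the adjusted p was 0.0634, so it was not called. Of 6 tested atrial markers 2 were higher, Nppa and Dkk3 (1.03 log2, adjusted p 0.0164), and the list median was -0.11 log2. Other markers of the programme overlapped between the groups. The natriuretic peptide Nppb had 506, 318, 297 and 398 CPM in Ctrl TAC and 445, 483, 535 and 494 CPM in KO TAC (0.36 ± 0.35 log2, adjusted p 0.63). Myh7, the fetal myosin heavy chain of the mouse ventricle, had 1884, 3995, 3202 and 3931 CPM in Ctrl TAC and 2890, 3494, 5089 and 3580 CPM in KO TAC (0.21 ± 0.20 log2, adjusted p 0.638). Acta1, skeletal alpha-actin, had 3290, 2563, 2448 and 3915 CPM in Ctrl TAC and 3810, 2678, 2494 and 2793 CPM in KO TAC (-0.05 ± 0.27 log2, adjusted p 0.947). Of 43 potassium and sodium channels and pumps 2 were called lower, among them Kcnv2, a silent potassium channel subunit (-1.07 ± 0.21 log2, adjusted p 0.0172). The 1 gene of that list called higher was Gjc1, connexin 45 of the conduction system (0.41 ± 0.10 log2, adjusted p 0.0361), so 6.98% of the list was called. The sarcomere, hypertrophy and channel lists held 0 called genes without Ctrl TAC 2 and with the series as a term, and without KO TAC 4 they held 3, 1 and 2.

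Rpl3l is the striated muscle form of a ribosomal protein. It had 135, 136, 139 and 110.2 CPM in Ctrl TAC 1 to 4 and 99.95, 94.8, 81.2 and 90.8 CPM in KO TAC 1 to 4, lower in KO TAC by 0.50 ± 0.08 log2 (adjusted p 0.00753, and 0.0461 with the series as a term). The 79 cytosolic ribosomal proteins of all cells had a median of 0.10 log2, with 70 higher, 0 called and 2 without overlap (2.53%, against 10.5% of all genes). Without Ctrl TAC 2 their median was 0.02 log2, and in sham hearts it was 0.06 log2 with 78 higher. Among 55 translation factors 1 was called higher and 1 lower (3.64%, against 2.68% of all genes), and they are the 2 forms of the elongation factor that brings aminoacyl-tRNA to the ribosome. The general form Eef1a1 had 649, 602, 670.4 and 717 CPM in Ctrl TAC and 784, 856, 788 and 798 CPM in KO TAC (0.29 ± 0.05 log2, adjusted p 0.0131). The form of muscle and neurons, Eef1a2, had 1297, 1401, 1232 and 1221 CPM in Ctrl TAC and 1128, 1110, 1105 and 1059 CPM in KO TAC (-0.23 ± 0.05 log2, adjusted p 0.0196). Eef1a1 was called in each of the 16 fits. Of 35 genes of protein folding in the endoplasmic reticulum 2 were called (5.71%), both higher, among them the disulfide isomerase relative Txndc5 (0.27 ± 0.05 log2, adjusted p 0.0154). The translation factor list and the protein folding list held 1 and 0 called genes without Ctrl TAC 2, without KO TAC 4 2 and 1, and with the series as a term 0.

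Of 45 genes of MHC class II, complement and interferon 35 were higher, 3 called higher and 1 lower (8.89% called, against 2.68% of all genes). Among those called higher were 2 regulators that hold complement in check. Serping1, the C1 inhibitor, had 74.0, 56.8, 74.7 and 75.8 CPM in Ctrl TAC 1 to 4 and 97.8, 100.1, 94.9 and 92.4 CPM in KO TAC 1 to 4 (0.45 ± 0.07 log2, adjusted p 0.00753), and Clu, clusterin, rose by 0.45 ± 0.09 log2 (adjusted p 0.0172). The interferon-induced antiviral gene Rsad2 fell by 0.55 ± 0.13 log2 (adjusted p 0.0406). Among 33 macrophage and myeloid genes 2 were called higher, Spp1 (above) and the tetraspanin Cd9 (0.41 ± 0.08 log2, adjusted p 0.0143), and 1 lower (9.09% called). The latter was Cd163, a haemoglobin scavenger receptor of resident macrophages, with 32.5, 35.4, 26.9 and 25.6 CPM in Ctrl TAC and 18.9, 21.8, 15.3 and 22.9 CPM in KO TAC (-0.61 ± 0.14 log2, adjusted p 0.0347). The summed macrophage markers overlapped, at 229.9 to 246 CPM in Ctrl TAC and 217 to 291 CPM in KO TAC. Of 49 chemokines and cytokines 3 were called (6.12%), all higher, Cxcl16 and the fractalkine Cx3cl1 by 0.38 ± 0.09 and 0.41 ± 0.10 log2 (adjusted p 0.0333 and 0.0422) and Mif by 0.36 ± 0.10 log2 (adjusted p 0.0494). These 3 lists held 2, 1 and 0 called genes without Ctrl TAC 2, without KO TAC 4 3, 2 and 2, and with the series as a term 0. Serpina3n, a serine protease inhibitor, had 17.6, 23.7, 18.8 and 22.1 CPM in Ctrl TAC and 27.5, 28.9, 39.0 and 38.2 CPM in KO TAC, a rise of 0.70 ± 0.13 log2 (adjusted p 0.0163). The secreted proteins Lrg1 and Lcn2 fell by 0.78 ± 0.14 and 1.20 ± 0.30 log2 (adjusted p 0.0145 and 0.0414).

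Several secreted signals and redox genes were also called. Dio2, the deiodinase that makes active thyroid hormone within cells, had 6.28, 3.72, 3.35 and 5.85 CPM in Ctrl TAC 1 to 4 and 10.1, 12.9, 24.9 and 11.7 CPM in KO TAC 1 to 4 (1.64 ± 0.30 log2, adjusted p 0.0163). It was the 1 called gene of 13 in the thyroid hormone list (7.69%, against 2.68% of all genes). Penk, the precursor of enkephalins, had 1.92, 3.08, 3.03 and 1.49 CPM in Ctrl TAC and 1.23, 1.15, 0.568 and 1.06 CPM in KO TAC (-1.24 ± 0.24 log2, adjusted p 0.0156). Both genes were most extreme in KO TAC 3. Of 53 growth factor and angiogenic genes 2 were called (3.77%), both higher, the endothelin receptor Ednrb (0.43 ± 0.08 log2, adjusted p 0.0109, in each of the 16 fits) and the lymphatic growth factor Vegfc (0.52 ± 0.13 log2, adjusted p 0.0451). Of 46 redox and proteostasis genes 3 were called (6.52%), all higher. Nox4, an enzyme that makes hydrogen peroxide, rose by 0.99 ± 0.21 log2 (adjusted p 0.0197), and the extracellular antioxidant enzymes Gpx3 and Sod3 by 0.58 ± 0.13 and 0.32 ± 0.07 log2 (adjusted p 0.0338 and 0.0184). The stress-induced regulator Nupr1 was the 1 called gene of 34 in the list of the ATF4 and mitochondrial stress response (2.94%, near the 2.68% of all genes), and rose by 0.80 ± 0.19 log2 (adjusted p 0.0389). The growth factor list held 1 called gene and the thyroid, redox and ATF4 lists 0 without Ctrl TAC 2, without KO TAC 4 they held 3, 1, 3 and 1, and with the series as a term each held 0. C1qtnf4, a secreted C1q and TNF related protein, fell by 0.85 ± 0.14 log2 (adjusted p 0.00804). Of 19 clock genes 0 were called in edgeR.

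When the model held a term for the animal-number series, 12 genes were called, 6 higher and 6 lower. They were Col12a1, Serpine2, Skil, Serpina3n, Sprr1a and Lhfp on the higher side and Gstk1, Ldhd, Pex6, Ogdhl, Rpl3l and Gm5790 on the lower. All but Gm5790 were also among the 489 called genes. Gm5790 had 0.510, 0, 0.0456 and 0.111 CPM in Ctrl TAC 1 to 4 and 0 counts in all 4 KO TAC libraries, so no fold is given. Lhfp, a tetraspan membrane protein, had 44.95, 37.7, 43.5 and 46.0 CPM in Ctrl TAC and 57.5, 58.9, 56.0 and 55.1 CPM in KO TAC (0.40 ± 0.06 log2, adjusted p 0.00563).

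The neighbours of the deleted gene were examined for an effect near it. Cardinal lies on chromosome 11 at 65277654 to 65365798 (GRCm38, minus strand), and 8 other tested genes lie within 1 Mb on either side. None of the 8 was called, with log2 fold changes from -0.25 to 0.05 and a lowest adjusted p of 0.433. The nearest coding gene Myocd, a cofactor of serum response factor, had 26.9, 31.8, 29.4 and 31.3 CPM in Ctrl TAC 1 to 4 and 26.3, 26.0, 32.7 and 32.3 CPM in KO TAC 1 to 4 (-0.03 ± 0.11 log2, adjusted p 0.930). KO TAC 1 and 2 were the lowest libraries and KO TAC 3 and 4 the highest, so the groups overlapped fully.

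Whether counting used the strand of a read is not given in the sources used here, so the levels of genes that overlap another annotated gene are less certain. Of the genes described above these are Acadvl, Actg1, Aldh6a1, Aspn, Atp2a2, Casq1, Cd9, Cfl2, Ckm, Col22a1, Cxcl16, Dio2, Dpm1, Eci2, Eef1a1, Etfb, Fn1, Gm5790, Igfbp7, Ldhd, Lhfp, Lims2, Lox, Loxl3, Lrrc14b, Ltbp2, Ltbp3, Myh6, Myh7, Myh7b, Nppa, Pcca, Penk, Pfkm, Sfrp2, Spp1, Tgfb3, Thbs1, Top2a, Tuba1b, Txndc5 and Uchl1. Endothelial markers summed to 1059 to 1311 CPM in Ctrl TAC and 1076 to 1156 CPM in KO TAC with 0 of 10 called, and erythroid markers to 530.2 to 1038 CPM and 1019 to 1377 CPM with 0 of 6 called. Defining heart muscle transcripts were abundant in all 8 libraries, as the cardiomyocyte sums above show.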

How the data were processed

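Poly(A) RNA of the apex of 16 mouse hearts, 4 per group, was sequenced as paired reads. The authors deposited raw read counts per Ensembl gene, 1 column per mouse, without normalization. The submitters' processing notes name cutadapt 2.3, FastQC, HISAT2 2.1.0, edgeR 3.26.1 and GRCm38. The counting program, its annotation and its strand setting are not given in the sources used here. Libraries held 53169437 to 79404714 counts, and 0 columns were left unused. Intervals of single counts cover counting error only. Symbols and positions came from GENCODE M21 (GRCm38), which matched 99.5% of identifiers (the rest held 0.00355% of counts).

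Samples were grouped by the genotype and treatment in the labels, and replicates numbered in sample order, so numbers pair nothing. Genes were filtered with filterByExpr, scaled by TMM and tested with the robust quasi-likelihood test of edgeR 4.0.16 (R 4.3.3) in a model of 4 group means on all 16 libraries, with Benjamini-Hochberg adjustment over 18275 genes. The standard error was the absolute log2 fold change divided by the square root of F. CPM refers to TMM-scaled totals, and log2 CPM has a prior count of 2. Marker sums add the CPM of a list. The steps were tested on simulated data. Cardinal was also compared by an exact permutation test, on log2 CPM with another small offset than the prior count of 2.

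The members, the gene lists and the naming rule were chosen with earlier results of these data known, and the lists were written from general knowledge. Named were the most changed called genes of at least 1 log2 CPM without overlap, the called genes lowest in p within each list and any called against its list, genes called with the series term, interaction genes, the most abundant called genes and preset genes. A further few were picked from these for the text, and some genes that satisfy the rule are not reported here. Motif matches were read from RefSeq promoters (GRCm38.p6) for 12202 of 18256 tested symbols.

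Alternatives were the size factors of DESeq2 in edgeR, the DESeq2 1.42.0 Wald test, limma 3.58.1 voom with quality weights, no filter, at least 10 counts, a model term for the animal-number series, a threshold of 0.01 for the adjusted p, the 8 loaded libraries alone, mitochondrially encoded genes left out, each library left out in turn, and Ctrl TAC 2 and KO TAC 4 left out together. Voom for the sham contrast and the interaction was added after seeing the data.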

Additional observations from a re-analysis of the deposited data

Results flagged for a closer look

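Among 365 groups of 4 loaded libraries examined, each for a named gene, a list median or a marker sum, 24 held 1 library that stood apart, its gap to the nearest library taking over 0.83 of the whole range. Among unselected, independent groups chance gives about 5%, 1 in 20. Most genes here were named because they were called, and the groups share libraries, so the number cannot be judged against that share. Ctrl TAC 2 was the lowest control for Myl6 (94.1 CPM) and Serping1 (56.8 CPM) and the highest for Lims2 (72.3 CPM). It also had the highest control medians of the calcium handling list (0.07 log2 relative to the Ctrl TAC mean) and of the growth factor list (0.038 log2), the lowest of the chemokine list (-0.15 log2), and the highest sums of Schwann cell and neuron markers (32.3 CPM) and of kidney, pancreas and gut markers (7.40 CPM). Ctrl TAC 4 was the lowest control for Etfb (284 CPM), Aldh6a1 (169.6 CPM), Ldhb (797 CPM), Ckm (1389 CPM) and Rpl3l (110.2 CPM), and the highest for Txndc5 (45.2 CPM). Each of these values lies toward KO TAC. Ctrl TAC 1 was the lowest control for Spp1 (0.493 CPM) and for the median of the immediate early genes (-0.26 log2).

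Among the KO TAC libraries, KO TAC 1 was the lowest for Col14a1 (30.8 CPM) and for the median of the fibroblast list (0.23 log2). KO TAC 2 was the highest for Sdhb (535 CPM) and Cd9 (37.8 CPM). KO TAC 3 was the highest for Sfrp1 (33.5 CPM) and the lowest for Hadh (247 CPM). The library labelled KO TAC 4 was the highest for Cardinal (Gm12295, 4.55 CPM) and the lowest for the median of the actin list (0.12 log2).

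The genotype difference changed with the operation by the interaction test for Lrrc14b (-0.86 log2) and Dpm1 (-1.52 log2), both with an adjusted p of 0.0168 in edgeR. The log2 fold change of KO against Ctrl was 0.36 after sham surgery and -0.50 after TAC for Lrrc14b, and 0.85 and -0.67 for Dpm1.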

How the results depend on the processing

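The 489 genes called in KO TAC against Ctrl TAC (248 higher, 241 lower) became 1183 with the DESeq2 Wald test (605 higher, 578 lower), 325 with limma-voom (119 lower), 285 without a filter (110 lower), 154 in the 8 loaded libraries alone (94 and 60), 109 without Ctrl TAC 2 and KO TAC 4 (73 and 36), 19 at an adjusted p under 0.01 (10 and 9) and 12 when the animal-number series was a model term (6 and 6). Leaving out each library in turn gave 63 to 733 genes in all, 40 to 375 higher and 23 to 358 lower. The count moved by over 1.5 times without Ctrl TAC 2 (63), KO TAC 3 (84), KO TAC 2 (152), Ctrl TAC 3 (190), KO TAC 1 (258) and KO sham 2 (324), and the higher count also without Ctrl TAC 4 (375). The cause was not tested. With DESeq2 size factors the count was 484, and without mitochondrially encoded genes 496. In sham hearts the 0 genes became 3 with DESeq2, and for the interaction the 2 genes became 132 with DESeq2 and 1 with limma-voom. Of 119 called genes named here, 108 were not called when the series was a model term, 86 without Ctrl TAC 2, 78 without both doubted libraries, 75 without KO TAC 3, 68 in the 8 loaded libraries alone and 26 with limma-voom, and 0 changed direction under any alternative run for single genes. Myocd, at -0.03 log2 and not called, was 0.069 when the series was a model term and -0.081 to 0.027 when 1 library was left out, above 0 without Ctrl TAC 2 (0.006), KO TAC 1 (0.023) or KO TAC 2 (0.027). Acta1, at -0.05 log2 and not called, was -0.202 to 0.090 when 1 library was left out, above 0 without Ctrl TAC 4 (0.090) or KO TAC 3 (0.019). Of 1139 recomputed medians over 57 lists, 28 in 17 lists moved by more than the spread between libraries. No paired analysis was possible because the labels give no replicate numbers. Depth limits the low genes most, since Cthrc1, Spp1 and Gm5790 had under 1 CPM in every Ctrl TAC library.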
